A study of Capra hircus with 3 samples.

Results

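Collagens are the main structural proteins of the extracellular matrix. Their chains wind around each other and assemble outside the cell into fibrils (fibrillar collagens such as types I and V), into the sheet-like network of basement membranes (type IV), into beaded filaments (type VI) or into coats on the surface of fibrils (types XII and XIV, the fibril-associated collagens). In the liver of humans and mice, hepatic stellate cells and portal fibroblasts are known as the main makers of scar collagen, and endothelial and bile duct cells as makers of basement membrane. The 27 genes described here are all rows of the deposited matrices whose symbol is COL, digits, A and digits, out of 27271 gene rows, of which 17313 have a symbol. They hold 8 fibrillar, 3 basement membrane, 4 beaded filament, 3 fibril-associated, 3 short chain, 3 transmembrane and 1 multiplexin collagen and 2 of other kinds. The rule reads names only. In a RefSeq gene table of goat, 17 further symbols have the same form, and those genes are not analysed here. COL3A1, COL4A3 and COL6A1 are among them, so every ranking and sum of collagens below covers the 27 genes only.

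Single cells were taken from livers of 15 female goats aged 3 to 4 years. The NASH library pools 5 livers of goats that had steatohepatitis (NASH, non-alcoholic steatohepatitis) and ate the HRDS diet, the NASH-T library pools 5 livers of the steatohepatitis tolerance group on that diet, and the Con library pools 5 livers of healthy goats on the LRDS diet. Each group is 1 library with no replicate, and livers within a pool cannot be told apart. No test of the diet or the disease was therefore possible, and every interval below is an exact 95% interval for counting error only. Livers were digested with 0.25% trypsin for 40 min and strained at 40 µm, so fewer cells of a kind in a library and fewer cells released by digestion cannot be told apart.

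After filtering, 8389 NASH, 8914 NASH-T and 7200 Con cells remained, with medians of 2472, 2128 and 2393 UMIs (unique molecular identifiers, each standing for 1 captured RNA molecule). Between 20 and 23 cell barcodes were shared by each pair of libraries. Cells were clustered without the collagen genes and named from markers that hold no collagen, so the collagen levels of a class did not shape it. Levels, in CPM, are a gene's UMIs divided by the total of its class and scaled. The classes with most collagen were 363 NASH, 307 NASH-T and 188 Con stellate-like cells (RELN, HHIP and HGF among their leading genes), and 58, 62 and 75 cells of a cluster with fibroblast markers (DCN, C7) and smooth muscle markers (ACTA2). This second cluster is called fibroblast and muscle-like. STAB2-high endothelial-like cells (472 NASH, 893 NASH-T, 276 Con), VWF-high endothelial-like cells (74, 122, 84), cholangiocyte-like cells (43, 59, 116) and hepatocyte-like cells (4071, 3120, 2876) were compared as well. Hepatocyte-like clusters 1 and 13 came almost only from NASH (1449 and 1288 NASH cells, 43 and 57 NASH-T cells, 4 and 14 Con cells).

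All 27 collagens had at least 1 UMI, and together they had 25600. Of these genes, 18 reached 50 UMIs in a named class and are described one by one, with COL1A1 added because of its role. Of the 18, 6 were highest in stellate-like cells and as many in fibroblast and muscle-like cells, 2 in cholangiocyte-like cells and 1 each in STAB2-high endothelial-like, hepatocyte-like, T cell-like and mast cell-like cells. The other 9 members had between 1 (COL2A1) and 64 UMIs (COL17A1), and COL1A1 with its 61 UMIs is one of these 9. Over the 27 genes, UMIs and gene span in the RefSeq table had a Spearman's rho of 0.383. The part of gene span in level differences between genes was not tested.

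**Figure D1:**
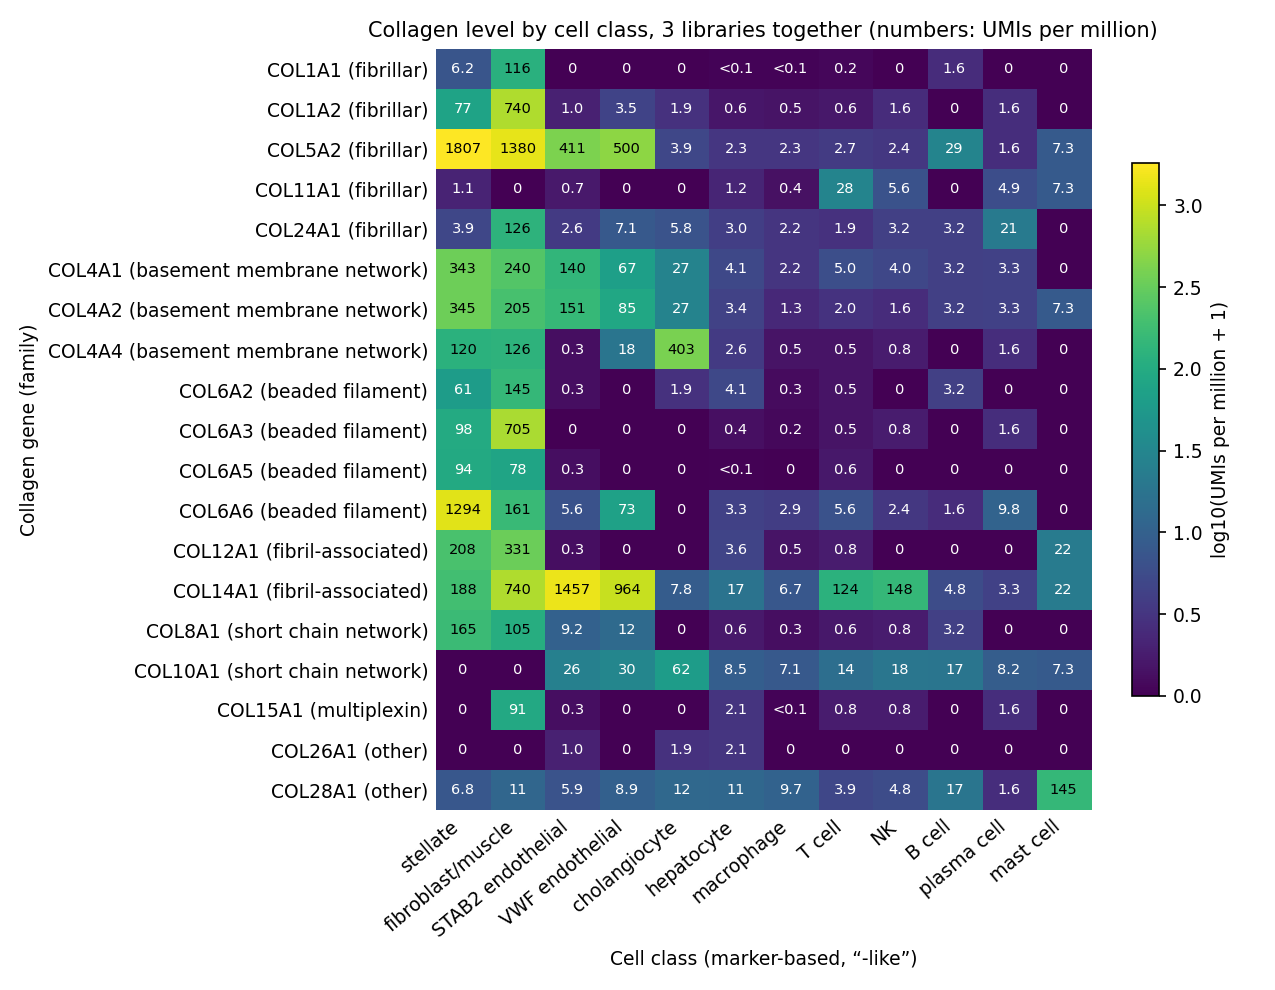
Level of 19 collagen genes (rows, grouped by family) in 12 marker-based cell classes (columns), with the 3 libraries summed. Colour is log10 of CPM plus 1 and the printed numbers are CPM. Stellate-like cells were highest for COL5A2 and COL6A6, fibroblast and muscle-like cells for COL1A1, COL1A2 and COL6A3, STAB2-high endothelial-like cells for COL14A1, and cholangiocyte-like cells for COL4A4.

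Over the 3 libraries together, stellate-like and fibroblast and muscle-like cells carried different collagens. COL5A2, a chain of type V collagen that takes part in starting fibrils, was at 1807 CPM in stellate-like and 1380.5 CPM in fibroblast and muscle-like cells, against 2.28 CPM in hepatocyte-like cells. COL6A6, a chain of the type VI beaded filaments, was at 1294 CPM in stellate-like cells and 161 CPM in fibroblast and muscle-like cells. The order was the other way for the chains of type I collagen, the bulk fibril of scar and portal tissue. COL1A2 was at 740 CPM in fibroblast and muscle-like cells and 77.2 CPM in stellate-like cells, and COL1A1 at 116 and 6.20 CPM in the same classes. Without the fibroblast and muscle-like cell of most UMIs in each library, that class was at 482 CPM of COL1A2 and 85.5 CPM of COL1A1. COL6A3, another type VI chain, was at 705 CPM in fibroblast and muscle-like cells and 98.0 CPM in stellate-like cells, and COL6A2 at 145 and 61.4 CPM. Within the fibroblast and muscle-like cells, COL1A2 stood at 950 CPM in the 125 cells led by LUM, MGP and DPT, and at 380 CPM in the 40 cells led by MYH11 and ACTG2. A NASH-T and a Con cell with 48 and 50 COL1A2 UMIs carry much of the higher value, and without the cell of most UMIs in each library the LUM cells were at 548 CPM. COL8A1, a short chain collagen of vessel walls, was lower in the LUM cells, with 4.22 CPM in the LUM cells and 562 CPM in the MYH11 cells.

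The genes most like COL1A1 over the 36 points of 12 classes in 3 libraries, leaving out collagens, were MGP, DCN, EPHA3, NTRK3 and PDZRN4, with Pearson's r between 0.960 and 0.981 on log2(CPM + 20). Those most like COL4A1 were P3H2, SCD5, GLI3, HS3ST3A1 and JAM3, with r between 0.938 and 0.949. The points share their libraries and the pools behind them, so these values describe the pattern over classes only. P3H2 is a prolyl 3-hydroxylase that acts on basement membrane collagen.

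Among the 27 genes, COL5A2 had most UMIs in stellate-like cells of every library. It had 1111 UMIs and 1590 CPM (interval 1498 to 1686) in NASH, 1234 UMIs and 1917 CPM (1811 to 2027) in NASH-T, and 863 UMIs and 1996 CPM in Con. NASH was 0.797 times Con (0.728 to 0.872), NASH-T was 0.960 times Con (0.880 to 1.05), and NASH-T was 1.21 times NASH (1.11 to 1.31). NASH was the low library, and the intervals of NASH-T and Con overlap. A COL5A2 UMI was found in 80.7% of NASH, 83.7% of NASH-T and 87.2% of Con stellate-like cells, at medians of 1599, 1870 and 2174 UMIs per cell. In T cell-like cells, which should lack it, the shares were 0.275%, 0.241% and 0.388% at medians of 1024, 1196 and 1175 UMIs. With each cell thinned to 1000 UMIs, which left out 66 NASH, 35 NASH-T and 13 Con stellate-like cells, the shares came to 72.1%, 73.2% and 73.1%, so the order seen in the full depth was not present at equal depth.

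COL6A6 was close to level between the libraries in these cells. It was at 1241 CPM in NASH, 1249 CPM in NASH-T and 1448 CPM in Con, with NASH 0.857 times Con (0.772 to 0.951) and NASH-T 0.863 times Con (0.776 to 0.959). Both ratios lie nearer to 1 than the 1.5-fold limit used below.

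A collagen was counted as higher or lower in a class when it had at least 20 UMIs in the 2 libraries together, a ratio of at least 1.5 in either direction and an interval that excludes 1. In stellate-like cells 12 collagens had enough UMIs. For NASH against Con, none was higher and 3 were lower, where 8.91% of the 6288 genes measured in the class were higher and 3.13% lower. The median log2 ratio was -0.12 over the 12 collagens and 0.09 over all genes. For NASH-T against Con, 1 collagen was higher and 2 were lower, with 4.82% and 3.36% of 5954 genes. For NASH-T against NASH, 1 was higher and 1 lower, with 3.64% and 8.02% of 6731 genes. The first 2 comparisons share the Con library. The NASH against Con count of 3 lower is 3 of 12 beside 3.13%, and one of the 3, COL12A1, rests on a single cell as given below.

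COL8A1 had the clearest difference among stellate-like cells. It had 70 UMIs and 100 CPM (78.1 to 127) in NASH, 113 UMIs and 176 CPM (145 to 211) in NASH-T, and 110 UMIs and 254 CPM (209 to 307) in Con. NASH was 0.394 times Con (0.288 to 0.536), NASH-T was 1.75 times NASH (1.29 to 2.40), and NASH-T was 0.690 times Con, which does not reach the 1.5-fold limit. NASH was low in both main sub-clusters of stellate-like cells. In the sub-cluster led by OTOGL, ALDH1A2 and ASIC2, COL8A1 was at 107 CPM in NASH, 126 CPM in NASH-T and 198 CPM in Con, and in the sub-cluster led by RSPO2, ANO3 and EDNRA at 124, 231 and 333 CPM. The share of stellate-like cells with a COL8A1 UMI was 13.2% in NASH, 23.1% in NASH-T and 31.4% in Con, and 9.76%, 12.9% and 20.0% at 1000 UMIs per cell. In T cell-like cells it was at most 0.0964%. No stellate-like cell held more than 8 COL8A1 UMIs, and without the cell of most UMIs in each library NASH was 0.393 times Con (0.284 to 0.542).

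COL6A5, a further type VI chain, was lower in both libraries of the HRDS diet. It was at 74.4 CPM (52 UMIs) in NASH, 80.8 CPM (52 UMIs) in NASH-T and 143 CPM (62 UMIs) in Con. NASH was 0.519 times Con (0.352 to 0.763) and NASH-T was 0.563 times Con (0.382 to 0.828), while NASH-T and NASH differed by less than their intervals. Neither ratio to Con kept its call in every alternative run, and those runs include a limit of a ratio of at least 2. At full depth COL6A5 was found in 10.7% of NASH, 13.4% of NASH-T and 23.9% of Con stellate-like cells. Their medians were 1599, 1870 and 2174 UMIs per cell. It was found in no T cell-like cell of NASH or Con and in 0.193% of those of NASH-T. The OTOGL sub-cluster had 130, 113 and 194 CPM of COL6A5 in NASH, NASH-T and Con, and the RSPO2 sub-cluster 37.5, 41.4 and 100 CPM.

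COL12A1, a fibril-associated collagen, shows how few cells can carry a level. It was at 143 CPM (100 UMIs) in NASH, 174 CPM (112 UMIs) in NASH-T and 365 CPM (158 UMIs) in Con stellate-like cells, a ratio of 0.392 for NASH over Con and 0.476 for NASH-T over Con. The share of cells with a COL12A1 UMI was 18.7%, 17.6% and 18.1%, which is alike in all 3 libraries. A single Con cell of the OTOGL sub-cluster held 91 of the 158 Con UMIs, in a total of 3021 UMIs. That cell also had 16 COL5A2 UMIs. Without the cell of most UMIs in each library, NASH was 0.876 times Con (0.634 to 1.22) and NASH-T 1.01 times Con (0.733 to 1.39), so both differences ended. The counting interval does not include such spread between cells. Over the libraries together COL12A1 was at 349 CPM in the OTOGL sub-cluster and 72.4 CPM in the RSPO2 sub-cluster, with a UMI in 26.7% and 8.40% of their cells. The cell of 91 UMIs lies in the OTOGL sub-cluster, and without the cell of most UMIs in each library that sub-cluster was at 225 CPM, with a UMI in 26.2% of cells.

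**Figure D2:**
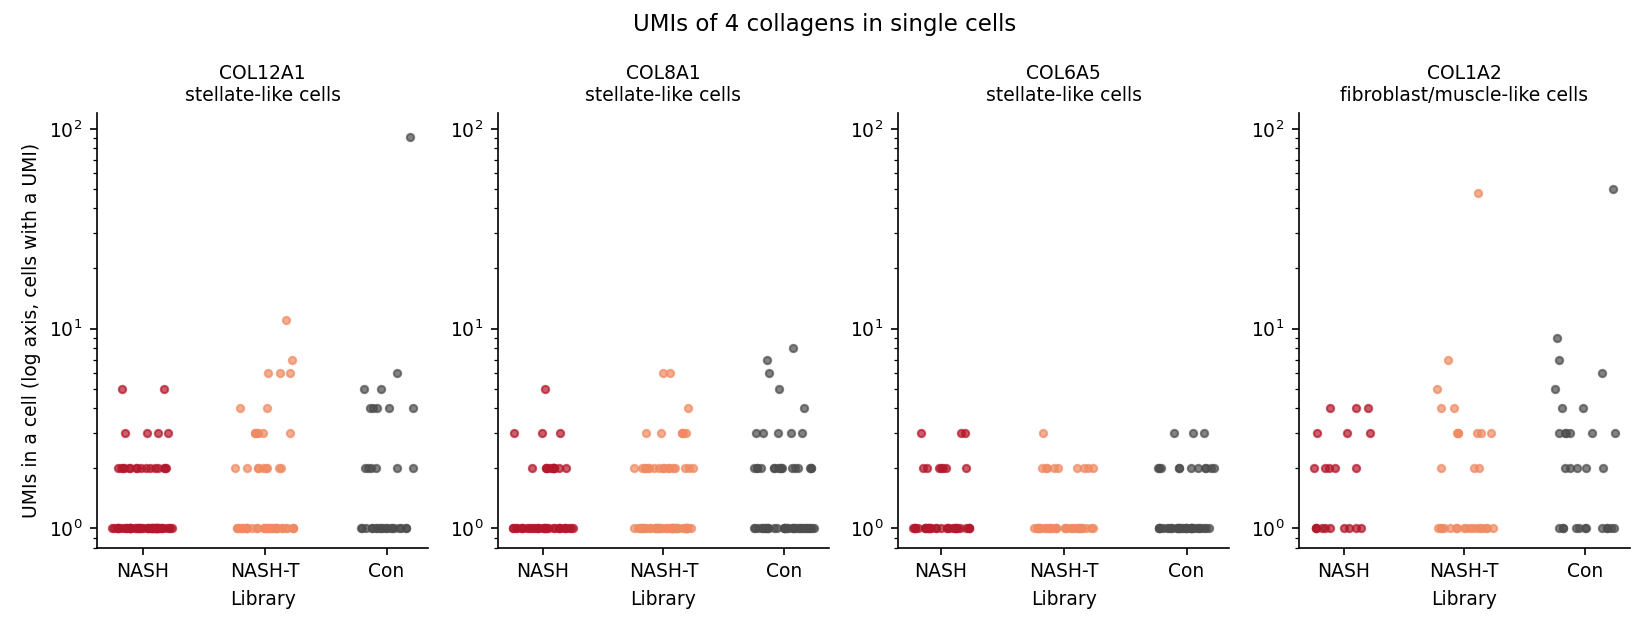
UMIs of COL12A1, COL8A1 and COL6A5 in single stellate-like cells and of COL1A2 in single fibroblast and muscle-like cells, on a log axis, for cells with at least 1 UMI, by library. One Con cell holds 91 COL12A1 UMIs, 1 NASH-T cell and 1 Con cell hold 48 and 50 COL1A2 UMIs, and no stellate-like cell holds more than 8 COL8A1 UMIs.

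The type IV chains of basement membranes were the family with a higher level in both HRDS libraries. Their sum in stellate-like cells was 1.18 times Con in NASH (1.03 to 1.36) and 1.22 times Con in NASH-T (1.05 to 1.40). COL4A1 was at 375 CPM in NASH, 360 CPM in NASH-T and 266 CPM in Con, which is 1.41 times Con in NASH (1.13 to 1.77) and 1.36 times Con in NASH-T (1.08 to 1.71), under the 1.5-fold limit. Its partner COL4A2, which joins COL4A1 in the common type IV molecule, was level at 333, 353 and 354 CPM. COL4A4, a type IV chain of specialised basement membranes such as that of the kidney glomerulus, was at 123 CPM in NASH, 141 CPM in NASH-T and 83.2 CPM in Con, and NASH-T was 1.70 times Con (1.14 to 2.57).

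COL14A1, which coats collagen fibrils, was the only collagen lower in NASH-T than in NASH by the count rule in stellate-like cells. It was at 138 CPM (89 UMIs) in NASH-T, 248 CPM (173 UMIs) in NASH and 166 CPM (72 UMIs) in Con, and NASH-T was 0.558 times NASH (0.427 to 0.725). Over all classes COL14A1 was highest in endothelial-like cells. The 15 endothelial markers summed to 134 CPM in NASH-T, 746 CPM in NASH and 199 CPM in Con stellate-like cells, with 12, 14 and 13 of them detected and CLEC14A at 0 in every library. A sub-cluster of 19 stellate-like cells was led by STAB2 and PTPRB, and of these 1 was from NASH-T, 15 from NASH and 3 from Con. Without the 3 small sub-clusters that carried genes of T cells, endothelium or hepatocytes, COL14A1 in NASH-T was 0.643 times NASH (0.484 to 0.852). The part of endothelial RNA in this difference was not tested.

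The hepatocyte markers also differed in stellate-like cells, where all 12 were detected and summed to 3984 CPM in NASH, 2928 CPM in NASH-T and 2534 CPM in Con. Summed over the 27 collagens, NASH was 0.844 times Con (0.80 to 0.891) and NASH-T 0.917 times Con (0.869 to 0.968). Without the 3 small sub-clusters these became 0.897 and 0.899, and NASH-T over NASH moved from 1.09 to 1.00. The smooth muscle markers, of which 12, 11 and 10 of 14 were detected with TAGLN and CASQ2 at 0 in every library, summed to 4930 CPM in NASH, 6328 CPM in NASH-T and 6569 CPM in Con stellate-like cells. NASH was thus low for them as for COL8A1 and COL5A2. The part of these shifts in the collagen differences was not tested.

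Genes that modify, bind or break collagen were read from lists in the same cells. Of 10 measured genes of collagen folding and modification, none was higher and 1 was lower in NASH than in Con, where 8.91% of all genes measured in the class were higher and 3.13% lower. The list counts below are of 0 to 2 genes in a direction and are to be read against these shares. The lower gene was P3H2, at 697 CPM in NASH, 1101 CPM in NASH-T and 1556 CPM in Con, with NASH 0.448 times Con (0.398 to 0.504) and NASH-T 1.58 times NASH (1.41 to 1.78). Among 9 measured basement membrane partners, LAMB1 and LAMC1, chains of laminin, were lower in NASH than in Con, and HSPG2 was higher. LAMB1 was at 361 CPM in NASH, 362 CPM in NASH-T and 724 CPM in Con, so it was 0.498 and 0.50 times Con. Of the 10 genes measured in the list of propeptide removal and crosslinking, none passed the rule for NASH against Con. PCOLCE2, an enhancer of propeptide removal, and LOXL1, a lysyl oxidase that joins elastin and collagen chains, were 1.69 and 2.10 times as high in NASH-T as in NASH, a comparison in which 3.64% of all genes were higher and 8.02% lower. None of 5 measured genes of collagen breakdown passed in any comparison.

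Of 9 measured collagen receptors, ADGRG6 and MRC1 were higher in NASH than in Con, at 67.3 against 9.25 CPM and 63.0 against 27.7 CPM. MRC1 is one of the leading genes of the small sub-cluster with endothelial genes. ADGRG6 was at 1054 CPM in NASH and 1609 CPM in Con in VWF-high endothelial-like cells. The part of endothelial RNA in the ADGRG6 and MRC1 differences was not tested. Among 15 measured genes of TGF-beta and PDGF signalling, CCN1 and CCN2, secreted matrix proteins, were higher in NASH than in Con. CCN1 was at 73.0 CPM in NASH, 31.1 CPM in NASH-T and 9.25 CPM in Con, from 51, 20 and 4 UMIs. In fibroblast and muscle-like cells CCN1 was lower in NASH, at 180 CPM against 519 CPM in Con, a ratio of 0.346 (0.200 to 0.574). The difference between these classes was not tested. Among 11 measured genes of other fibrous matrix, BGN and FN1 were higher and DCN lower in NASH than in Con. For NASH-T against NASH, 1 of 11 was higher and 2 were lower, beside 3.64% and 8.02% of all genes. The ratios of the list ran from 0.376 to 3.62. One of the lower genes was OGN, 0.440 times as high in NASH-T as in NASH (0.322 to 0.595).

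**Figure D3:**
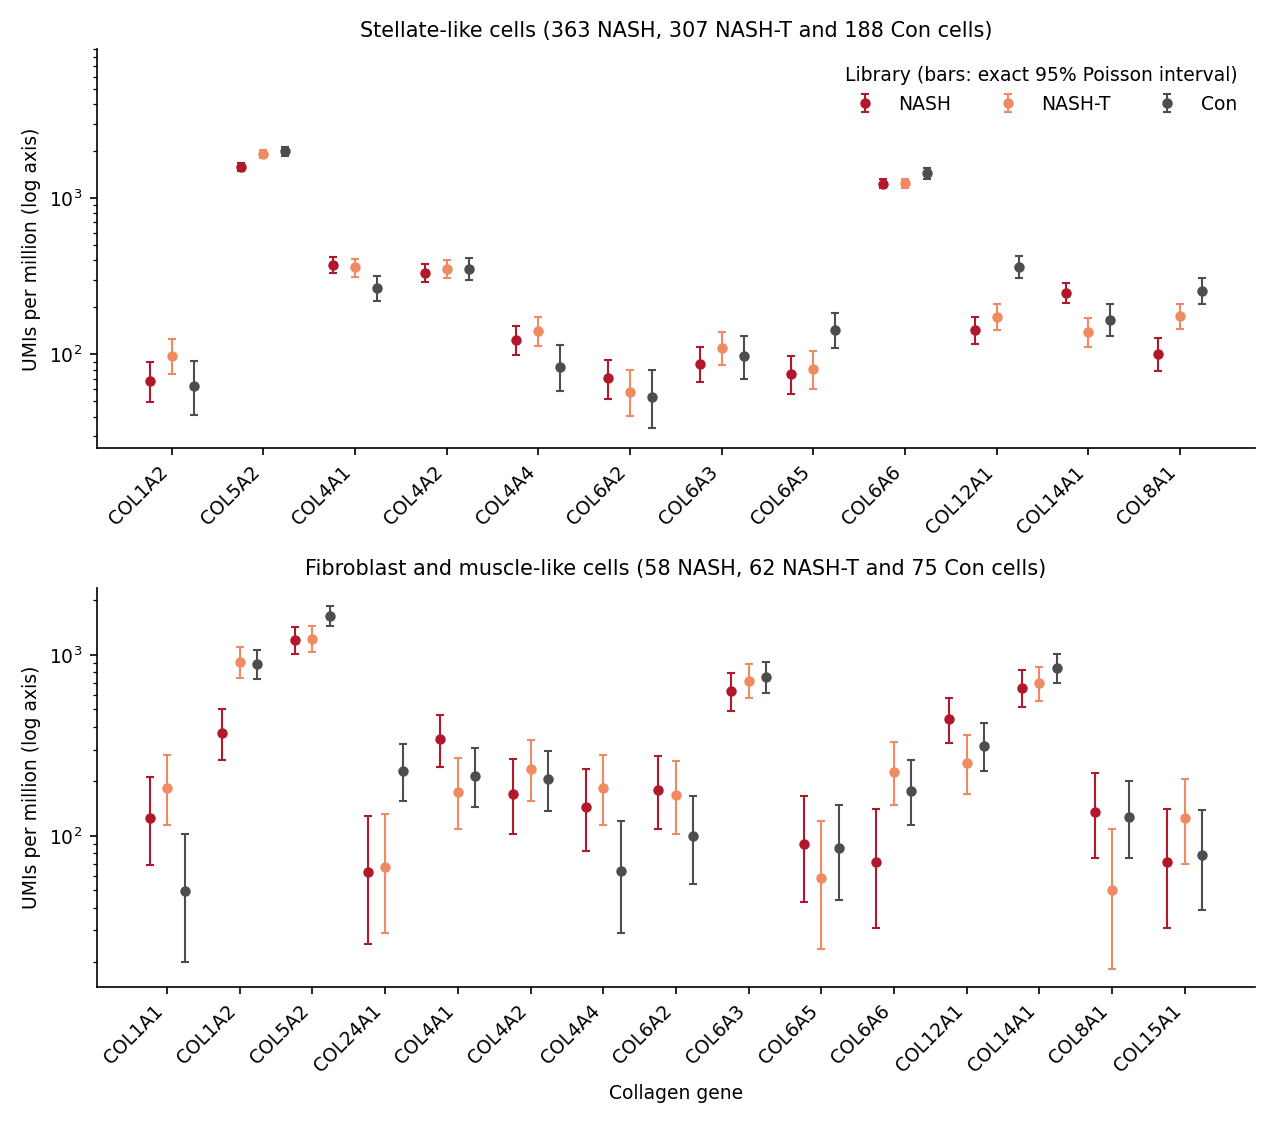
Level of collagens in CPM (log axis) in stellate-like cells (top) and in fibroblast and muscle-like cells (bottom), by library. Points are the summed level of a library and bars its exact 95% Poisson interval. In stellate-like cells COL8A1 is lowest in NASH at 100 CPM and COL6A5 highest in Con at 143 CPM, and in the lower panel COL1A1 is lowest in Con at 49.7 CPM.

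Fibroblast and muscle-like cells were few, and their collagen values rest on 58 NASH, 62 NASH-T and 75 Con cells. For NASH against Con, 0 of 14 collagens were higher and 3 lower, where 6.77% and 8.55% of 2820 genes were. For NASH-T against Con, 2 were higher and 1 lower (8.03% and 7.30% of 2889 genes), and for NASH-T against NASH, 2 of 13 were higher and 2 lower (6.81% and 6.05% of 2630 genes). These counts are of 1 to 3 genes, and the medians over the collagens were -0.09, -0.01 and 0.20 on the log2 scale.

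COL1A1 was at 126 CPM (14 UMIs) in NASH, 184 CPM (22 UMIs) in NASH-T and 49.7 CPM (7 UMIs) in Con. NASH-T was 3.71 times Con (1.53 to 10.3), and NASH was 2.53 times Con with an interval of 0.955 to 7.40. One NASH cell held 8 of the 14 NASH UMIs, and no NASH-T cell more than 3. Without the cell of most UMIs in each library COL1A1 was at 56.6 CPM in NASH, 161 CPM in NASH-T and 43.2 CPM in Con, NASH was 1.31 times Con (0.350 to 4.90) and NASH-T 3.73 times Con (1.43 to 11.4). With each cell thinned to 1000 UMIs, NASH-T was 1.99 times Con (0.387 to 12.8), which is no longer past the rule. A COL1A1 UMI was found in 12.1%, 21.0% and 9.33% of the cells of NASH, NASH-T and Con. COL1A2, the other chain of the type I molecule, was at 368 CPM (41 UMIs) in NASH, 913 CPM (109 UMIs) in NASH-T and 888 CPM (125 UMIs) in Con, so NASH was 0.414 times Con (0.284 to 0.594) and NASH-T 2.48 times NASH.

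The COL1A2 difference rests in part on 2 cells. One NASH-T cell held 48 and 1 Con cell 50 COL1A2 UMIs, and no NASH cell more than 4. Without the cell of most UMIs in each library NASH was 0.641 times Con (0.420 to 0.962) and NASH-T 1.51 times NASH (0.989 to 2.34). The share of cells with a COL1A2 UMI was 36.2% in NASH, 50.0% in NASH-T and 40.0% in Con, against at most 0.207% of T cell-like cells.

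COL4A4 was higher in NASH-T than in Con in these cells too, at 184 CPM (22 UMIs) against 63.9 CPM (9 UMIs), a ratio of 2.88 (1.28 to 7.11). In NASH it was at 144 CPM (16 UMIs), which was 2.25 times Con with an interval of 0.935 to 5.77. COL4A1 was at 176 CPM in NASH-T, 341 CPM in NASH and 213 CPM in Con, and NASH-T was 0.516 times NASH. COL12A1 was at 251 CPM in NASH-T, 440 CPM in NASH and 313 CPM in Con, and NASH-T was 0.571 times NASH.

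COL24A1, a fibrillar collagen known from developing bone in mouse, came from a handful of cells. Its 7 NASH UMIs lay in 1 cell, its 8 NASH-T UMIs in 2 cells and its 32 Con UMIs in 7 cells, all of them in the sub-cluster led by LUM. Both HRDS libraries were lower than Con by the count rule, with ratios of 0.276 and 0.295. COL6A6 also rested on few cells, with 1 NASH-T cell holding 15 of 27 UMIs and 1 Con cell 10 of 25 UMIs. Its ratios of 0.404 for NASH over Con and 3.15 for NASH-T over NASH lost the call without these cells. COL15A1, which links basement membranes to the matrix beneath, was at 71.8, 126 and 78.1 CPM in NASH, NASH-T and Con, with no difference beyond its intervals.

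The makeup of the cluster differed between the libraries. Cells led by LUM, MGP and DPT were 39 of 58 in NASH, 45 of 62 in NASH-T and 41 of 75 in Con. Those led by MYH11 and ACTG2 were 9, 13 and 18. The remaining sub-cluster of 30 cells was led by BMPER, CLEC9A and F8, with STAB2 and RGS5 among its leading genes. It held 10 NASH, 4 NASH-T and 16 Con cells. The summed fibroblast markers of the whole cluster stood at 6391, 7855 and 6414 CPM. Its 12 hepatocyte markers summed to 2684, 4212 and 3111 CPM and its 15 endothelial markers to 907, 218 and 476 CPM. The 16 stellate markers, of which 15, 13 and 13 were detected with NTM at 0 in every library, summed to 4928 CPM in NASH, 3526 CPM in NASH-T and 2415 CPM in Con. The 14 smooth muscle markers, of which 11, 14 and 11 were detected, summed to 4569, 6197 and 6464 CPM. The part of these in the collagen differences was not tested. Within the LUM cells, COL1A1 was at 179 CPM in NASH, 204 CPM in NASH-T and 61.3 CPM in Con, and COL1A2 at 417, 1145 and 1177 CPM. Without the cell of most UMIs in each library, these were 64.9, 173 and 50.3 CPM for COL1A1 and 389, 629 and 587 CPM for COL1A2.

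Genes around collagen were measured in small numbers in these cells. P3H2 was the only 1 of 3 measured folding genes past the rule for NASH against Con, at 987 CPM in NASH, 1097 CPM in NASH-T and 561 CPM in Con, or 1.76 and 1.95 times Con. In stellate-like cells its NASH ratio lay on the other side of 1, and the difference between the classes was not tested. Of 4 measured genes of propeptide removal and crosslinking, 2 were higher and none lower in NASH than in Con. These were ADAMTS2 and PCOLCE, which remove or help to remove the propeptides of fibrillar collagens. ADAMTS2 was 2.32 times Con (1.46 to 3.74), and PCOLCE 2.40 times (1.06 to 5.78) from 19 against 10 UMIs. In NASH-T, PCOLCE was 2.71 times Con (1.24 to 6.38), and ADAMTS2 at 1.34 times was not past the rule. Of 8 measured basement membrane partners 4 were higher in NASH than in Con, with NID1, a linker of laminin and type IV collagen, at 3.11 times (1.59 to 6.46), and none lower, beside 6.77% of all genes higher and 8.55% lower. The summed stellate markers were also higher in NASH, at 4928 CPM against 2415 CPM in Con, and their part in these counts was not tested. None of 7 basement membrane partners passed for NASH-T against Con. Of 13 measured genes of TGF-beta and PDGF signalling, 1 was higher and 5 were lower in NASH than in Con, beside the same shares. PDGFRB was higher, at 2.30 times Con. The lower genes were LTBP1, PDGFD, CCN1, TGFB3 and PDGFC, at 0.133 to 0.419 times Con, with 3 NASH UMIs of TGFB3 and 2 of PDGFC. For NASH-T against Con, 1 of 14 was higher and 3 were lower. Of 4 measured genes of collagen breakdown and its inhibitors, 2 were higher and 1 lower in NASH than in Con. For NASH-T against Con 1 was higher and 1 lower, beside 8.03% and 7.30% of all genes. The lower gene was FAP, a protease of activated fibroblasts, at 224 CPM in NASH, 201 CPM in NASH-T and 689 CPM in Con. The higher genes were MRC2, at 2.17 times Con in NASH, and TIMP3, at 1.83 times Con in NASH and 2.04 times in NASH-T. Of 15 measured genes of other fibrous matrix, 4 were higher and none lower in NASH-T than in Con, beside 8.03% and 7.30% of all genes. DCN and LUM, small proteoglycans that bind collagen fibrils, were 2.19 and 2.43 times as high in NASH-T as in Con. OGN was at 2.77 times Con, and BGN at 5.60 times (1.86 to 22.6) from 19 against 4 UMIs. For NASH against Con, OGN and POSTN were higher and SPARCL1 was lower, of 12 measured.

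In endothelial-like cells COL14A1 had most UMIs among the 27 genes, with 1268 of NASH, 2395 of NASH-T and 775 of Con in the STAB2-high class. Its level there was 1568 CPM in NASH, 1406 CPM in NASH-T and 1449 CPM in Con, and it was found in 79.0%, 76.3% and 75.7% of the cells. T cell-like cells held it in 15.5% of NASH, 11.4% of NASH-T and 11.4% of Con cells. In macrophage-like cells, at a median of 2286 to 2735 UMIs, the share was 1.36%, 1.72% and 1.29%. COL14A1 was highest in the 260 STAB2-high cells led by SAMD5 and PLCXD3, with RSPO3 among the leading genes, at 2614 CPM, against 989 CPM in the cells led by ATP13A3 and LIMCH1.

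COL4A1 was the one collagen of 5 counted as higher in NASH than in Con in STAB2-high cells, where 4.05% of 6759 genes were higher and 4.87% lower. It was at 179 CPM (145 UMIs) in NASH, 133 CPM (226 UMIs) in NASH-T and 105 CPM (56 UMIs) in Con, and NASH was 1.71 times Con (1.25 to 2.38). COL4A2 was at 160, 154 and 131 CPM, with no ratio past the limit. For NASH-T against Con, 1 of 6 collagens was lower, COL8A1 at 11 against 10 UMIs and 6.46 against 18.7 CPM (5.16% of 8147 genes higher, 4.59% lower). Its call did not hold without the cell of most UMIs. For NASH-T against NASH none of 5 passed, with 5.05% of 8393 genes higher and 3.67% lower. COL5A2 was at 445, 395 and 409 CPM in NASH, NASH-T and Con, which are within 1.5-fold of each other.

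VWF-high endothelial-like cells had COL14A1 at 911 CPM in NASH, 1132 CPM in NASH-T and 711 CPM in Con, and NASH-T was 1.59 times Con (1.28 to 1.99). COL4A1 had 16 UMIs in NASH, 20 in NASH-T and 2 in Con, so NASH-T was 5.66 times Con with a wide interval of 1.38 to 49.97. COL4A2 did not share this, with 7, 23 and 18 UMIs. These 2 collagens were the higher ones of 5 for NASH-T against Con, beside 7.11% of 3938 genes higher and 6.83% lower. None of 4 passed for NASH against Con (5.49% of 3078 genes higher, 6.99% lower) and none of 5 for NASH-T against NASH (6.04% of 3775 genes higher, 4.90% lower).

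Cholangiocyte-like cells were the class of COL4A4. It was at 478 CPM (55 UMIs) in NASH, 567 CPM (80 UMIs) in NASH-T and 280 CPM (72 UMIs) in Con. NASH was 1.71 times Con (1.18 to 2.46) and NASH-T 2.03 times Con (1.46 to 2.83), while NASH-T was 1.19 times NASH (0.830 to 1.70). A COL4A4 UMI was found in 60.5% of NASH, 59.3% of NASH-T and 36.2% of Con cells, at medians of 1827, 1919 and 1987 UMIs, and in at most 0.0964% of T cell-like cells. At 1000 UMIs per cell the shares were 35.0%, 42.9% and 25.3%. No cell held more than 7 COL4A4 UMIs.

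COL4A4 was 1 of 2 collagens measured in that class for each comparison with Con. The background was 8.61% of 3927 genes higher and 8.94% lower for NASH against Con, 4.78% of 4039 genes higher and 6.51% lower for NASH-T against Con, and 6.69% of 2989 genes higher and 8.56% lower for NASH-T against NASH. All 12 cholangiocyte markers were detected in each library and summed to 19838 CPM in NASH, 23758 CPM in NASH-T and 20438 CPM in Con. The hepatocyte markers summed to 7247, 4320 and 3538 CPM there. Hepatocyte-like cells themselves had 2.60 CPM of COL4A4.

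COL4A1 and COL4A2, which lie side by side in the RefSeq table, had similar levels over the classes, with r = 0.94 on log2(CPM + 20) over 36 points. Both were in 181 of 858 stellate-like cells, where 385 had COL4A1 and 354 had COL4A2. COL10A1, a short chain collagen known from growth plate cartilage, overlaps NT5DC1 in the RefSeq table. Over the 36 points the 2 genes had r = 0.639 on the same scale. For every NT5DC1 UMI there were 0.339 COL10A1 UMIs in STAB2-high endothelial-like, 0.372 in cholangiocyte-like, 0.341 in hepatocyte-like, 0.361 in macrophage-like, 0.333 in NK-like and 0.324 in T cell-like cells. The other classes lay apart from these, with 0.415 in VWF-high endothelial-like, 0.524 in B cell-like, 0.192 in plasma cell-like and 0.0909 in mast cell-like cells, from 1 to 17 COL10A1 UMIs each. There were 0 COL10A1 UMIs beside 41 NT5DC1 UMIs in stellate-like cells and 0 beside 6 in fibroblast and muscle-like cells. Within hepatocyte-like cells the ratio was 0.322 in NASH, 0.256 in NASH-T and 0.424 in Con. Whether the counting used strand is not given in the sources used here, and the COL10A1 values are reported as uncertain for this reason.

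**Figure D4:**
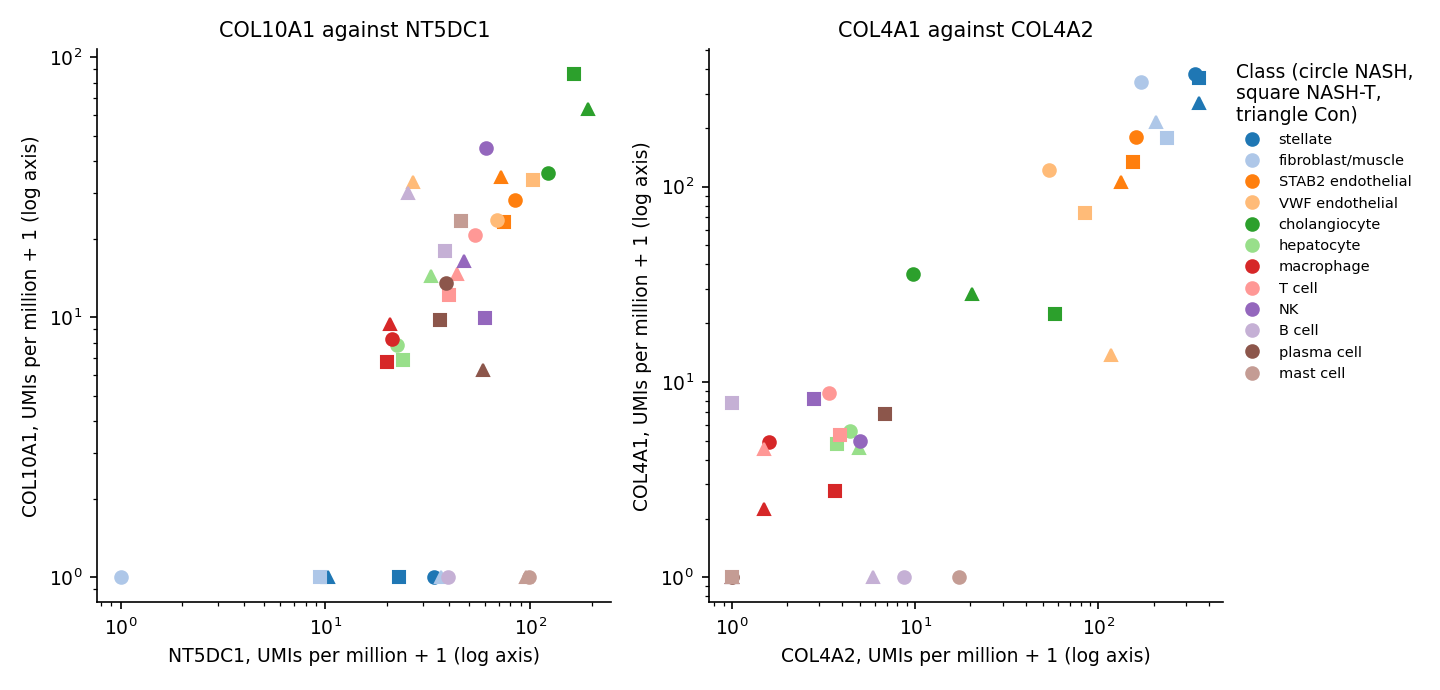
Level of COL10A1 against NT5DC1 (left) and of COL4A1 against COL4A2 (right), both as CPM plus 1 on log axes, in 12 classes (colours) of the NASH (circles), NASH-T (squares) and Con (triangles) libraries. COL10A1 per NT5DC1 lies between 0.324 and 0.372 in 6 of 12 classes and is at 0 in stellate-like and fibroblast and muscle-like cells (r = 0.639, 36 points), and COL4A1 and COL4A2 had r = 0.94 over 36 points.

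Hepatocyte-like cells held collagen RNA at a low level, with 16.5 CPM for COL14A1 and 11.4 CPM for COL28A1, and under 10 CPM for every other member. For NASH against Con, 1 of 15 measured collagens was higher and 4 lower, where 5.20% of 13335 genes were higher and 11.4% lower. For NASH-T against Con, 0 of 16 were higher and 4 lower (4.76% and 8.11% of 13210 genes). For NASH-T against NASH, 1 of 16 was higher and 4 lower (7.98% and 4.94% of 13318 genes). The median of all genes was itself at -0.12 on the log2 scale for NASH over Con and -0.10 for NASH-T over Con, beside -0.18 and -0.36 for the collagens. Summed collagen in NASH was 0.715 times Con (0.662 to 0.772), and 0.774 with scaling by trimmed mean of M values.

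COL14A1 was at 16.1 CPM in NASH, 9.86 CPM in NASH-T and 24.2 CPM in Con hepatocyte-like cells, and NASH-T was 0.408 times Con (0.335 to 0.495). Macrophage-like cells had 6.72 CPM of it. COL28A1, a collagen known from peripheral nerve in mouse, was at 8.39 CPM in NASH, 10.6 CPM in NASH-T and 16.4 CPM in Con, so NASH was 0.511 and NASH-T 0.645 times Con. Macrophage-like cells had 9.66 CPM of COL28A1. COL26A1 had 66 UMIs in NASH, 27 in NASH-T and 13 in Con, with NASH 3.69 times Con (2.01 to 7.28), and no UMI in macrophage-like or T cell-like cells. In hepatocyte-like clusters 0 and 5, which every library fills, NASH was 3.35 times Con (1.55 to 7.43).

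COL6A2 was at 2.51 CPM in NASH, 4.47 CPM in NASH-T and 5.89 CPM in Con, and NASH was 0.427 times Con (0.295 to 0.613). COL10A1 was 0.509 times Con in NASH and 0.435 times Con in NASH-T, beside NT5DC1 at 0.670 and 0.721 times Con. The COL5A2 ratio of 0.528 for NASH over Con ended without 1 Con barcode of 140659 UMIs, which held 14 of the 44 Con UMIs. COL5A2 in hepatocyte-like cells, at 2.28 CPM, was no higher than the 2.65 CPM of T cell-like cells. COL12A1 was at 3.92 CPM in NASH, 2.43 CPM in NASH-T and 4.43 CPM in Con, and COL11A1 had 31, 11 and 17 UMIs.

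Of the 14 collagen ratios past the rule in hepatocyte-like cells, 8 kept the call in clusters 0 and 5 alone, an alternative chosen after seeing the data. COL6A2 was then 0.787 times Con in NASH (0.490 to 1.23) and 0.972 times NASH in NASH-T (0.612 to 1.58), so its NASH-T over NASH ratio changed sides of 1. COL5A2 in NASH was 0.783 times Con (0.358 to 1.58). Relative to NASH, NASH-T was 0.555 times for COL11A1 (0.203 to 1.59), 0.622 times for COL12A1 (0.362 to 1.09) and 0.583 times for COL26A1 (0.308 to 1.13), none of them past the rule.

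**Figure D5:**
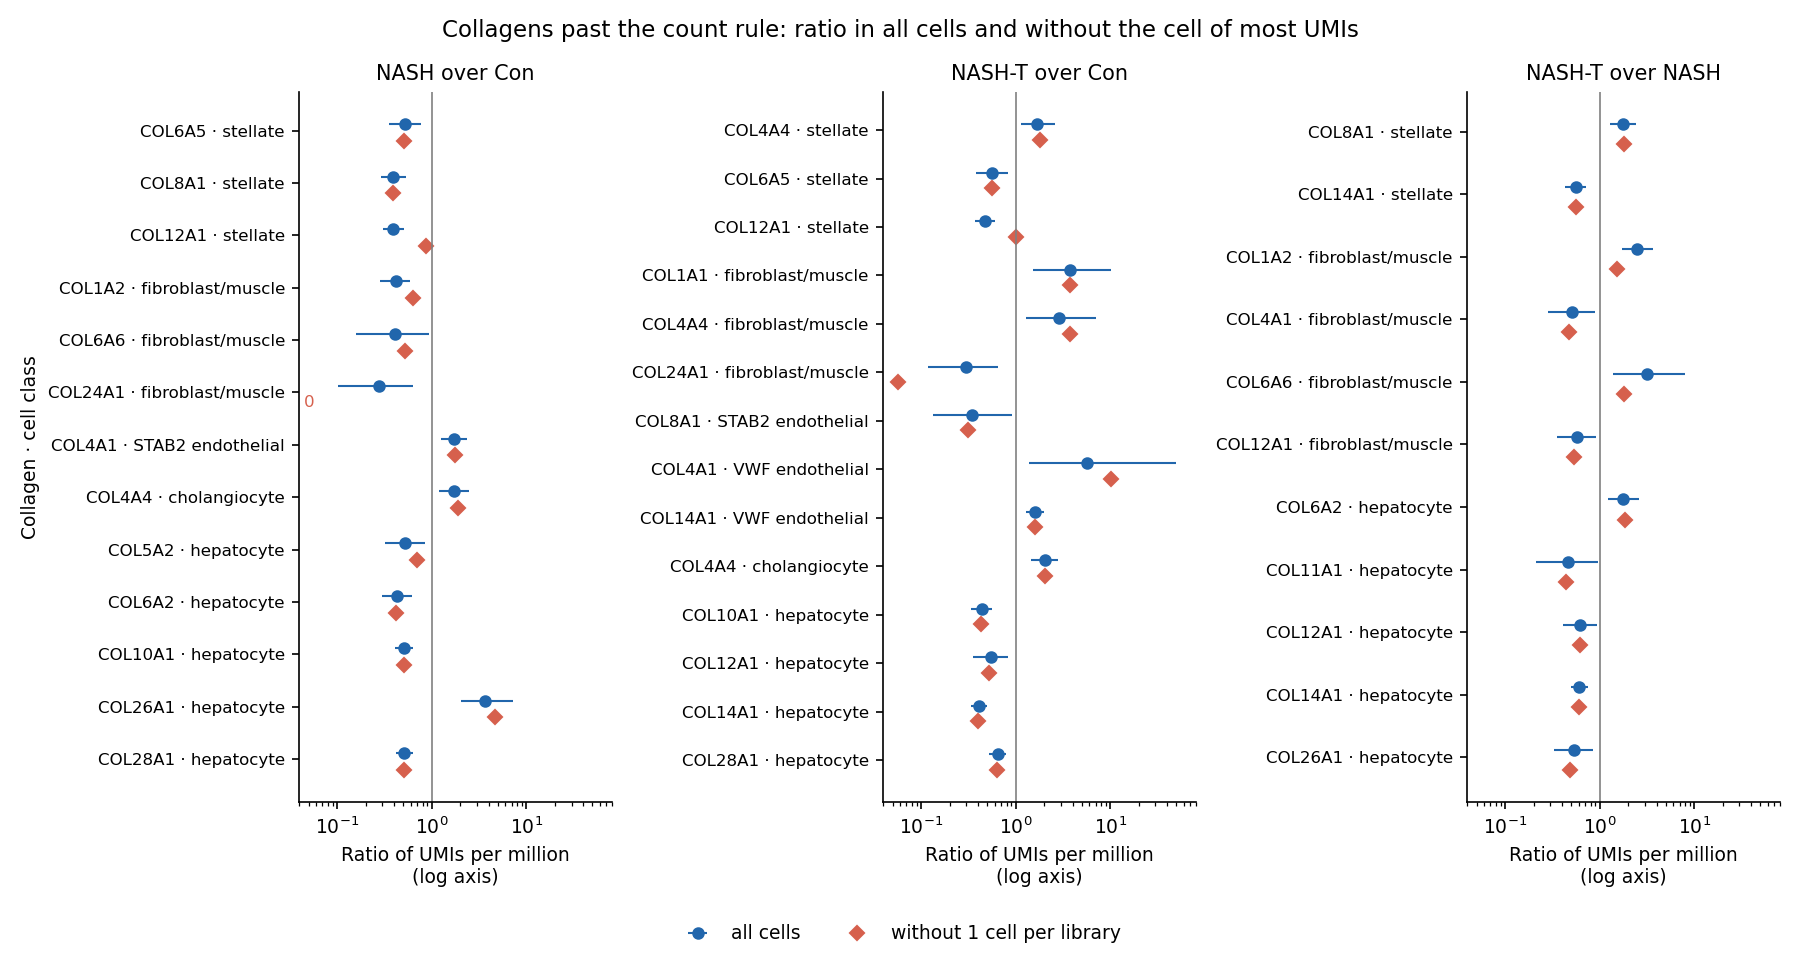
Ratio of CPM for each collagen and class past the count rule, on a log axis, for NASH over Con (left), NASH-T over Con (middle) and NASH-T over NASH (right). Circles with exact 95% intervals use all cells, and diamonds leave out the cell of most UMIs in each library. The COL12A1 ratios in stellate-like cells move to 0.876 and 1.01 without 1 cell, and the COL8A1 ratio of NASH over Con stays at 0.393.

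Some collagens were found in immune classes. In the RefSeq table COL14A1 and COL28A1 each overlap a long noncoding RNA, and COL11A1 overlaps a pseudogene and a long noncoding RNA. COL15A1 and COL24A1, described above, overlap a long noncoding RNA and a transcribed pseudogene. Reads of such neighbours cannot be told apart from those of the collagen here, since the strand of counting is not stated, and these levels are uncertain to that extent. COL11A1, a fibrillar collagen of cartilage, had 55 UMIs in NASH, 98 in NASH-T and 28 in Con T cell-like cells. Of its 263 UMIs in all kept cells, 136 lay in the 643 cells of a T cell-like cluster led by ADGRG1, RIPOR2 and SYNE1, where it was at 186 CPM and in 10.4% of cells. In macrophage-like cells it had 5 UMIs in all libraries together. COL14A1 was at 124 CPM in T cell-like and 148 CPM in NK-like cells, against 4.77 CPM in B cell-like cells. COL28A1 was at 145 CPM in mast cell-like cells, from 12 UMIs in NASH, 4 in NASH-T and 4 in Con, and was found in 26.5%, 15.0% and 11.1% of these 34, 20 and 27 cells.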

How the data were processed

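Per the file headers and the submitters' processing notes, the authors made the deposited UMI counts per gene and barcode with Cell Ranger 7.0.0. The genome build is not given in the sources used here. Limits for keeping cells were 200 genes, 500 UMIs and 20% mitochondrial UMIs, and Scrublet (expected rate 0.06) removed 342 NASH, 459 NASH-T and 284 Con barcodes. Scanpy 1.11.5 was used with 2000 variable genes (no collagens), 30 components and Leiden resolution 0.8, which gave 23 clusters. Clusters were named from 17 marker sets with 159 of 183 names in the files; a cluster with hepatocyte and endothelial markers (173 NASH, 32 NASH-T and 83 Con cells) stayed out of every class. Naming rules were set after the clusters were seen, and members and lists were chosen with earlier results of these data known. UMIs were summed per class and library; levels carry exact Poisson, ratios exact conditional binomial and shares Clopper-Pearson 95% intervals. Class totals ranged from 111407 to 19895490 UMIs in the compared classes. Named were collagens with at least 50 UMIs in a class, and some list members with large ratios or a role with a collagen. The call rule was run on simulated Poisson class sums without spread between cells. The data hold such spread, as COL12A1 shows, so that run cannot tell how the rule behaves under it. Alternatives included edgeR 4.0.16 factors. No sequences are shown.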

Additional observations from a re-analysis of the deposited data

Results flagged for a closer look

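COL14A1 differed in opposite directions between NASH-T and Con in 2 classes. It was 1.59 times as high in NASH-T as in Con in VWF-high endothelial-like cells, and 0.408 times as high in hepatocyte-like cells. The difference between the classes was not tested, since each group is 1 library.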

How the results depend on the processing

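No paired analysis was possible because each group is 1 library and no result comes from a test. Leaving out a replicate was not possible for the same reason. Of 38 ratios past the count rule, 7 kept the ratio and interval limits in every alternative run that gave a value for them. The minimum of UMIs is not part of this count. Among the 7 are COL8A1 in stellate-like cells (NASH over Con) and COL4A4 in cholangiocyte-like cells (NASH-T over Con). COL4A1 in VWF-high cells (NASH-T over Con) is also counted. So are COL24A1 (NASH over Con) and COL4A4 (NASH-T over Con) in fibroblast and muscle-like cells. The ratios named in the last 2 sentences have under 50 UMIs. They do not pass the run with that minimum, in which 29 of the 38 gave a value. Over the 6 compared classes, 3 collagen and class pairs were higher and 10 lower for NASH against Con. In that comparison 12, 14, 5, 4, 2 and 15 collagens were measured, with classes in the order described above. Of all measured genes, 4.05% to 8.91% were higher and 3.13% to 11.4% lower, by class. For NASH-T against Con 6 pairs were higher and 8 lower, beside 4.76% to 8.03% and 3.36% to 8.11% of genes. For NASH-T against NASH these were 4 and 7, beside 3.64% to 7.98% and 3.67% to 8.56%. Pair counts, here and below, are to be read against these shares. Summed collagen is meant by a ratio below unless a gene is named, and related genes are the list members in stellate-like cells. Causes were not tested.

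With doublets kept, the fibroblast and muscle-like ratio was 1.01 for NASH over Con (0.813 as reported), 1.41 for NASH-T over Con (0.918) and 1.40 for NASH-T over NASH (1.13). Then 8 pairs were higher for NASH and 10 for NASH-T against Con, 5 related genes were higher for NASH-T against Con (3 as reported), and COL5A2 in stellate-like cells was at 1225 CPM in NASH, 1500.3 CPM in NASH-T and 1545 CPM in Con. Under limits of 500 genes and 1000 UMIs, 7 pairs were higher for NASH against Con, the stellate-like ratio of NASH-T over NASH was 1.02, 3 related genes were higher and 4 lower for NASH-T against NASH (5 and 7 as reported), and NASH COL5A2 was at 1704 CPM in 86.3% of cells.

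Thinning to 1000 UMIs, which leaves fewer UMIs, kept 15 of the 38 calls; COL4A1 in VWF-high cells had 0 Con UMIs left and gives no value. The ratio of NASH over Con became 0.933 in stellate-like and 0.989 in fibroblast and muscle-like cells, and NASH-T over NASH 1.00, 0.984 and, in hepatocyte-like cells, 1.08. The hepatocyte-like ratio of NASH-T over Con was 0.770. COL8A1 in STAB2-high cells (NASH-T over Con) turned to 1.32 and COL26A1 in hepatocyte-like cells (NASH-T over NASH) to 1.70. Pairs lower for NASH against Con numbered 4, pairs higher and lower for NASH-T against Con 3 and 5, and for NASH-T against NASH 1 and 1. COL5A2 was at 1707 CPM in NASH stellate-like cells and in 72.1% of NASH, 73.2% of NASH-T and 73.1% of Con cells.

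The hepatocyte-like ratio of NASH over Con was 0.774 with TMM factors and 0.783 with median-of-ratios factors. With a minimum of 50 UMIs, 4 related genes were higher for NASH against Con (7 as reported) and 3 pairs for NASH-T against Con. With a ratio of at least 2, pairs higher and lower were 1 and 6 for NASH against Con, 5 were lower for NASH-T against Con, and 2 and 1 for NASH-T against NASH.

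The last 3 alternatives were chosen after seeing the data. In the main stellate-like sub-clusters the ratio was 0.897 for NASH over Con and 1.00 for NASH-T over NASH, and 5 pairs were higher for NASH against Con. In hepatocyte-like clusters 0 and 5 the ratio was 0.794 for NASH over Con and 0.806 for NASH-T over NASH, 4 pairs were lower for NASH-T against NASH, and COL6A2 (NASH-T over NASH) was 0.972. Without the cell of most UMIs, 5 pairs were higher for NASH against Con and COL12A1 in stellate-like cells (NASH-T over Con) was 1.01. With collagens among the variable genes the endothelium formed 1 cluster, so VWF-high cells gave no value.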
